A study of Homo sapiens with 6 samples.

Results

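The wide H3T11ph regions lost after PKM2 knockdown are stretches of chromatin that were enriched for phosphorylated threonine 11 of histone H3 (H3T11ph) in control MDA-MB-231 cells and had no counterpart in PKM2-depleted cells. They were taken from the H3T11ph NC list as the regions on chromosomes 1 to 22 that were at least 222 bp wide, which is 2 times the narrowest region of 111 bp, and that overlapped no region of any width in the H3T11ph PKM2-KD list. The rule gave 2951 lost wide regions, out of 4003 wide regions and 41692 regions of any width in H3T11ph NC, and out of 972622 regions in all 6 lists. Comparison was made with the 1052 kept wide regions of NC, which did overlap a PKM2-KD region, and with the 1913 gained wide regions, which were at least 182 bp wide in PKM2-KD (2 times the narrowest there, 91 bp) and overlapped no NC region. Because absence from PKM2-KD chose the lost regions, that absence, their widths and their H3T11ph heights are given as a description.

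MDA-MB-231 is a triple-negative breast cancer cell line, and the study used CUT&Tag, in which an antibody tethers a transposase that cuts out the DNA around its target. H3T11ph was mapped in NC cells, the control with the label's wild-type genotype, and in cells with PKM2 knockdown (PKM2-KD). H3K27ac was mapped in the same 2 genotypes, and NONO was mapped in NC cells and in cells with NONO knockdown (NONO-KD). Every group was 1 library, so no value below has a replicate error and no p-value was computed. The study's methods describe both siRNA and shRNA knockdowns and do not say which was used for these libraries, and region lists carry no measure of how far the targeted protein fell.

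PKM2 is the pyruvate kinase isoform typical of proliferating and tumor cells. Besides its role in glycolysis it can enter the nucleus, where it phosphorylates proteins, and threonine 11 of histone H3 is among its reported targets. H3K27ac, acetylation of lysine 27 of the same histone, marks active promoters and enhancers and is written by acetyltransferases such as p300, CBP and TIP60. NONO is a nuclear protein of paraspeckles that binds RNA and DNA and acts in splicing, DNA repair and transcription.

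The promoters of 5 genes show what a lost region covered at a start site, and were picked by fold and by the other marks there. They are the 250 bases before the RefSeq start site in GRCh38.p14, printed 5′ to 3′ along the gene's strand, with the bases under the lost region in capitals. ZNF708 (a zinc finger gene, chr19:21329411-21329660, minus strand), MIDEAS (a gene of a histone deacetylase complex, chr14:73760304-73760553, minus strand) and TMEM170A (a gene for a membrane protein, chr16:75464690-75464939, minus strand) had the lost regions of highest fold among those that covered at least 120 of these 250 bases. DSG2 (a desmosomal cadherin gene, chr18:31497927-31498176, plus strand) had H3K27ac there in NC and not in PKM2-KD, and RMND5A (a ubiquitin ligase subunit gene, chr2:86720041-86720290, plus strand) had NONO there in NC and not in NONO-KD.
ZNF708: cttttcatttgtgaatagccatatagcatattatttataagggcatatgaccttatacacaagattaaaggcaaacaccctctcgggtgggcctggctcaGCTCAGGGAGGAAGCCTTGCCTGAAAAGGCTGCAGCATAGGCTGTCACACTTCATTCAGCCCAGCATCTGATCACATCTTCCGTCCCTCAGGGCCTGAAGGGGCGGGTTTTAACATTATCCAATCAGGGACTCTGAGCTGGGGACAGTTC
MIDEAS: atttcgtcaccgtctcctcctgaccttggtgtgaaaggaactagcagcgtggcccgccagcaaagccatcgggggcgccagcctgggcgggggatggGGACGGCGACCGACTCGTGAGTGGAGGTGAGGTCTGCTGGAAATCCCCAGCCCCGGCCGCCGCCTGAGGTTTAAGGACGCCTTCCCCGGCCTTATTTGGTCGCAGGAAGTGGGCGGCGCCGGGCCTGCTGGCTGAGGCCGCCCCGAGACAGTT
TMEM170A: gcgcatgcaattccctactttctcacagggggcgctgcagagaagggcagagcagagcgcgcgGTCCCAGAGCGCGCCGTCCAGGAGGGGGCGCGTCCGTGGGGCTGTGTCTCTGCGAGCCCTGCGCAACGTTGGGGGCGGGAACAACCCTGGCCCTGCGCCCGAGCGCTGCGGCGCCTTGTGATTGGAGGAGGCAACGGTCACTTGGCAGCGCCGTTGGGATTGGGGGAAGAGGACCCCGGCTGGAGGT
DSG2: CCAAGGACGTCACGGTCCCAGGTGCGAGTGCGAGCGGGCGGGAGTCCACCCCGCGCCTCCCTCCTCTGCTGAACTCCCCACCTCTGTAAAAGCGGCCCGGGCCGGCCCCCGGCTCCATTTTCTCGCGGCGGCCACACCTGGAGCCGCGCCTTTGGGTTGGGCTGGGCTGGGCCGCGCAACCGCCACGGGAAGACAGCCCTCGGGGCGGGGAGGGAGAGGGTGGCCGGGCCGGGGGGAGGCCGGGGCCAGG
RMND5A: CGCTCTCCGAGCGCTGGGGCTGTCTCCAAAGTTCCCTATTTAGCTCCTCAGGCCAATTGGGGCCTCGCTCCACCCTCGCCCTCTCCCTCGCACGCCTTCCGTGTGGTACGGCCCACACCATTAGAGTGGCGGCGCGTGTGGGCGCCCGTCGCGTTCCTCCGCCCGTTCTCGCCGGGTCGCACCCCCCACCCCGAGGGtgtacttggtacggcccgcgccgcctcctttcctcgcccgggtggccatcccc
The lost region covered 150 of the 250 bases in ZNF708, 153 in MIDEAS, 187 in TMEM170A, all 250 in DSG2 and 197 in RMND5A. G and C made up 48.8% of the bases in ZNF708 and 75.2% in DSG2, with MIDEAS at 67.2%, TMEM170A at 69.2% and RMND5A at 70%.

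The height of a region was recovered from the deposited fold and p-value as the pileup, the number of fragments stacked at its summit, for 41648 of the 41649 NC regions that could be tried. Fold is the ratio of the pileup at the summit to the background that the caller set for that place, with 1 added to both. The depth implied for the H3T11ph lists was 3.35 fragments per kb in NC and 3.42 in PKM2-KD. The NONO and H3K27ac lists of NC differed in form from the other lists. Regions of the minimum width made up 94.5% and 79.1% of them, against 1.19% to 2.06% in the other 4, where the smallest gap between regions was also 1 bp over the narrowest width. Differences between NC and knockdown within these pairs cannot be told apart from how the lists were made, and values of both are given side by side only. Among marker genes, 8 of 8 mesenchymal or basal ones (among them VIM, AXL and ZEB1) had an H3K27ac region near an end in both genotypes. Of 8 luminal or epithelial markers, 3 had one in NC (FOXA1, GATA3 and KRT8) and 5 in PKM2-KD (ERBB3, ESR1, FOXA1, KRT8 and PGR). The share of all genes with an H3K27ac region near an end was not computed, so these counts do not identify the cell line.

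By the rule, 2951 of the 4003 wide NC regions (73.7%) were lost. The share was higher for NC regions of all widths together, at 94.2%, and for the narrow ones, at 96.4%. In the other direction 1913 of 2950 wide PKM2-KD regions (64.8%) had no NC overlap, and 58.1% of those at least 222 bp wide. Wide regions were thus lost less often than narrow ones, and regions without a counterpart were the majority in both directions.

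Lost wide regions were mostly short and of moderate height. Their median width was 285 bp, with a range from 222 to 2386 bp, against 344 bp in the kept ones. The median fold was 7.52 (1.34 to 101) and the median pileup 18 fragments, with the middle of the distribution between 7 and 44. Kept wide regions had a median fold of 9.49 and a median pileup of 50, and gained wide regions 20.6 and 51. The share lost fell with height, from 95.4% at a pileup of 4 to 90.0% at 5 to 10 fragments, 80.3% at 10 to 20, 75.3% at 20 to 40 and 57.4% at 40 or more, where the upper value of each band is excluded. Even the tallest class thus lost more of its wide regions than it kept.

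At the edges of the rule, 27 lost regions were exactly 222 bp wide and 28 regions without a PKM2-KD overlap were 221 bp wide, so nothing set the minimum width apart. The closest misses lay 1, 2 and 4 bp from a PKM2-KD region, and the smallest overlaps among kept regions were 2, 4 and 4 bp. Most lost regions were far from any PKM2-KD region. The median gap was 12540 bp, 215 regions (7.29%) lay within 500 bp of one, and 164 (5.56%) lay over 100 kb away.

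**Figure D1:**
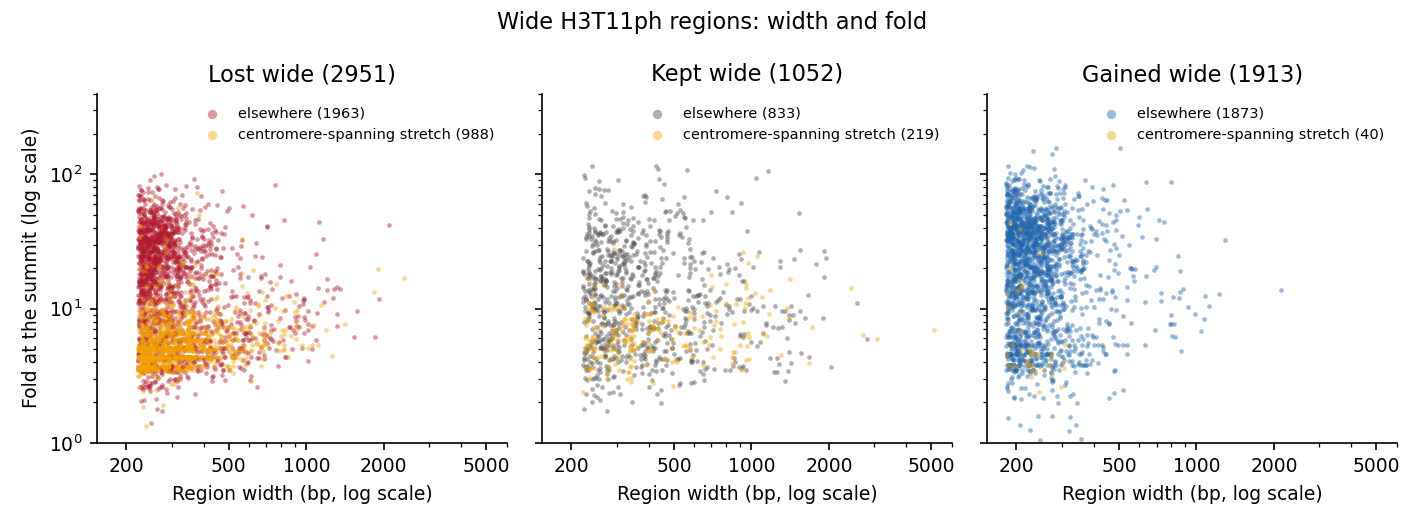
Each point is a wide H3T11ph region, placed by its width in bp (horizontal, log scale) and its fold at the summit (vertical, log scale), with lost regions on the left, kept in the middle and gained on the right. Orange points lie in the stretches that span the centromeres: 988 of the lost regions, most of them low, 219 of the kept and 40 of the gained.

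Position along the chromosome set the lost regions apart from kept and gained ones. The longest stretch of each chromosome without an annotated gene, between 2.16 and 21.7 Mb long, is where the assembly places the centromere and much of its flanking satellite DNA. Extended to the nearest protein-coding gene on each side, these 22 stretches covered 133.3 Mb, or 4.745% of the span of the chromosomes. They held 988 of the 2951 lost wide regions, or 33.5% (95% Wilson interval 31.8 to 35.2), against 9.51% of NC regions of all widths. Wide regions as a class were frequent there, since the stretches held 1207 of the 4003 wide NC regions, lost or kept. Of the wide regions inside, 81.9% were lost, against 70.2% of those outside the stretches. The stretches held 219 of the 1052 kept wide regions (20.8%), a difference of 12.7 percentage points (95% Newcombe interval 9.603 to 15.57), and 40 of the 1913 gained wide regions (2.09%), a difference of 31.4 points (29.6 to 33.2). Both kinds of interval cover counting error only. Lost regions outnumbered gained ones inside the stretch on all 22 chromosomes.

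The regions in these stretches were low ones. The 988 lost there had a median pileup of 8 fragments and a median fold of 5.10, and 875 of them had a pileup under 20. The 1963 lost elsewhere had a median pileup of 33 and a median fold of 13.8. With height held within a band, the excess over gained regions was 53.1 points (46.5 to 58.1) at a pileup of 5 to 10 fragments. There 561 of 876 lost and 18 of 164 gained regions lay inside. This excess was 46.6 points (39.7 to 51.4) at 10 to 20, 11.7 (8.2 to 15.0) at 20 to 40 and 3.85 (2.61 to 5.41) at 40 or more. Against kept regions the excess was 16.6 points (6.26 to 26.8) at 5 to 10 fragments. At 10 to 20 fragments the difference from kept regions was -3.19 points, at 20 to 40 it was -8.68 and at 40 or more it was -6.13. Among regions with a pileup of 20 or more, 113 of 1421 lost and 107 of 823 kept regions lay inside, so tall lost regions were there less often than tall kept ones (-5.05 points, -7.84 to -2.43).

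The fall inside the stretches was not limited to wide regions. H3T11ph regions of any width numbered 3966 there in NC and 1461 in PKM2-KD, or 36.8% as many, and fewer on each of the 22 chromosomes. Elsewhere they numbered 37726 and 34259, or 90.8% as many. Among regions with a pileup under 20, the count inside was 3315 in NC and 1060 in PKM2-KD, and outside it was 11978 and 7878. Among taller regions it was 651 and 401 inside, and 25748 and 26381 outside. These counts come from the contrast that chose the lost regions and describe these libraries only.

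Chromosomes 1, 5 and 19 held the most lost wide regions in their stretches, with 147, 143 and 140. These chromosomes are known to carry closely related alpha satellite arrays, and fragments that match several arrays cannot be placed with certainty. How the reads were placed is not given in the sources used here, and its part in the counts was not tested. Chromosomes 6, 7, 10 and 11 followed with 89, 83, 81 and 74, and chromosome 8 had 1. Grouped after these values were seen, the stretches of chromosomes 1, 5 and 19 lost 430 regions and kept 167, or 72% lost, and the other stretches lost 558 and kept 52, or 91.5% lost. H3T11ph regions of any width were fewer after PKM2 knockdown in both groups of stretches, at 1659 and 636 in the first and 2307 and 825 in the second.

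The NONO and H3K27ac lists are given beside this as counts only. NONO regions on chromosomes 1, 5 and 19 numbered 1014 in NC and 1389 in NONO-KD, and H3K27ac regions 2306 in NC and 3704 in PKM2-KD. In the remaining stretches NONO regions numbered 2585 and 1740, and H3K27ac regions 4341 and 2015. Knockdown and the form of the lists cannot be told apart in these counts.

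**Figure D2:**
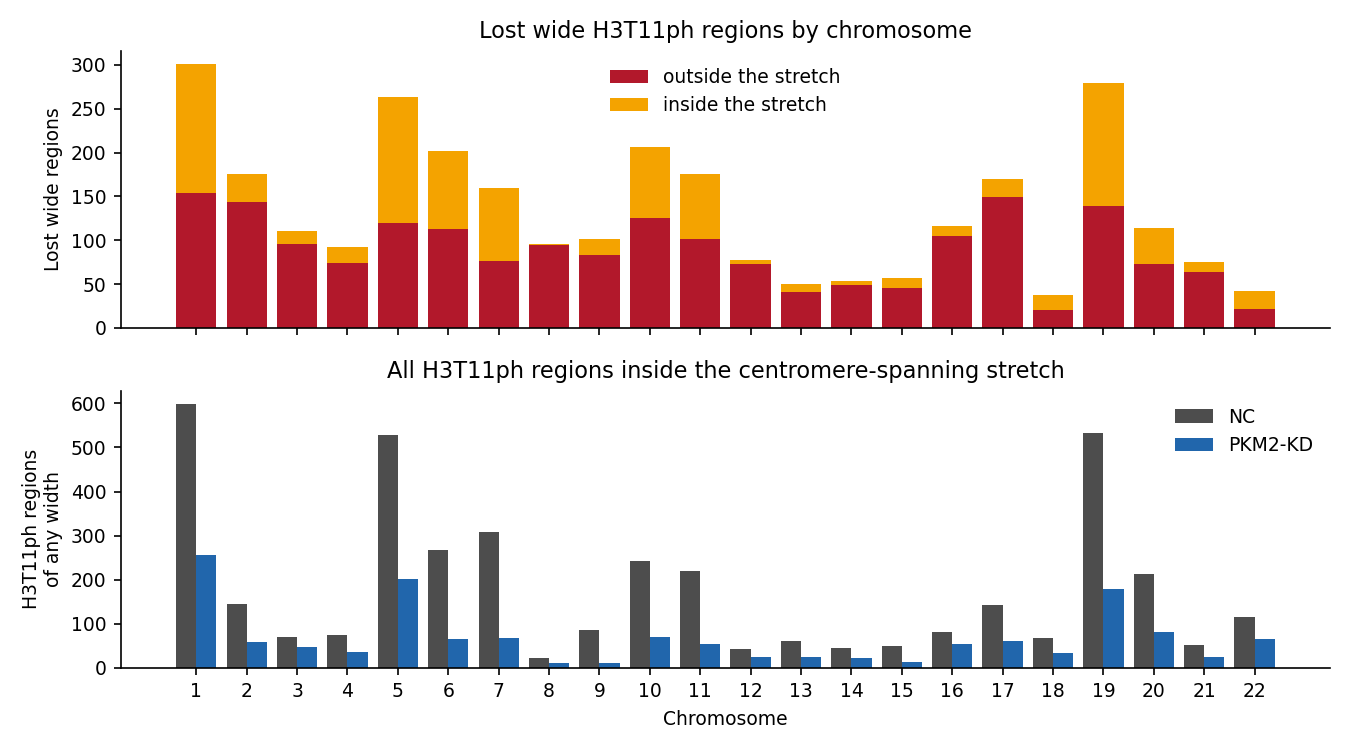
The upper bars give the number of lost wide H3T11ph regions on each chromosome, split into those inside (orange) and outside (red) the centromere-spanning stretch. The lower bars give all H3T11ph regions of any width inside that stretch in NC (grey) and PKM2-KD (blue), and the PKM2-KD bar is the lower one on all 22 chromosomes.

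**Figure D3:**
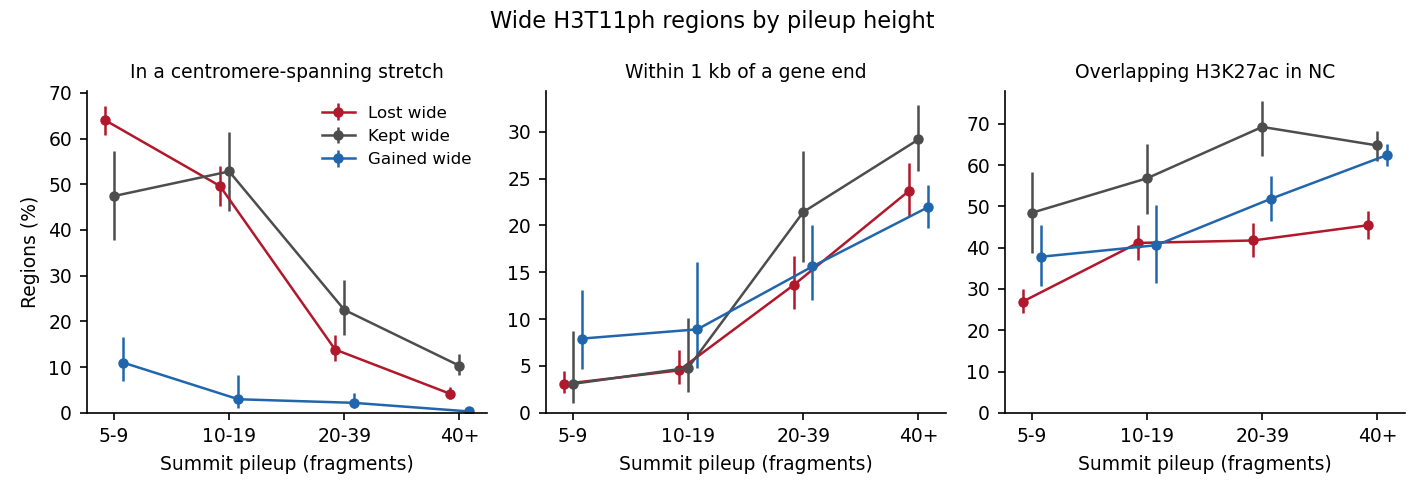
The share of lost (red), kept (grey) and gained (blue) wide regions inside a centromere-spanning stretch, within 1 kb of a gene end and overlapping H3K27ac in NC, by the pileup at the summit in fragments. Vertical lines are 95% Wilson intervals, and lost regions lie below kept ones for H3K27ac in each band shown.

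H3K27ac was found less often at lost wide regions than at kept ones. An H3K27ac NC region overlapped 1102 of 2951 lost regions (37.3%, 35.6 to 39.1), against 19.9% of all NC H3T11ph regions. It overlapped 665 of 1052 kept regions (63.2%), a difference of -25.9 points (-29.2 to -22.4), and 1085 of 1913 gained regions (56.7%), a difference of -19.4 points (-22.2 to -16.5). In H3K27ac PKM2-KD, 1381 lost regions were overlapped (46.8%, beside 19.9% of all NC H3T11ph regions). The differences were -29.5 points from kept (-32.6 to -26.3) and -16.1 points from gained regions (-18.9 to -13.2). Inside the centromere-spanning stretches, lost regions exceeded the 40 gained ones by 13.1 points in NC (-1.94 to 23.1) and 19.5 in PKM2-KD (3.75 to 31.8). At 10 to 20 fragments the differences from gained regions were 0.55 (-10.1 to 10.6) and 5.37 (-4.78 to 15.9). They were negative in both lists at 5 to 10, 20 to 40 and 40 or more fragments. Outside the centromere-spanning stretches and at a pileup of 20 or more, H3K27ac NC overlapped 570 of 1308 lost regions (43.6%) against 487 of 716 kept ones (68.0%, a difference of -24.4 points, -28.7 to -20.0).

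NONO was also found less often at lost than at kept regions, in both of its lists. NONO NC regions overlapped 507 lost regions (17.2%, 15.9 to 18.6, beside 6.53% of all NC H3T11ph regions) and 455 kept ones (43.3%), a difference of -26.1 points (-29.4 to -22.8). The 322 gained regions overlapped by NONO NC made up 16.8%, and the difference of lost from gained was 0.35 points, with an interval from -1.84 to 2.48 points. NONO-KD regions overlapped 486 lost regions (16.5%, beside 4.42% of all NC H3T11ph regions), 403 kept regions (38.3%, a difference of -21.8 points) and 138 gained regions (7.21%, a difference of 9.26 points, 7.46 to 11). Inside the stretches NONO-KD overlapped 238 of 988 lost regions (24.1%) and 147 of 219 kept ones (67.1%), a difference of -43.0 points (-49.5 to -36.0).

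A larger share of lost than of kept regions carried nothing else that was mapped. None of the NONO and H3K27ac lists had a region at 1136 lost regions, which is 38.5%, while the share was 7.13% in kept regions. All 4 lists had one at 70, and 248 had both NONO and H3K27ac in NC. The shares of all NC H3T11ph regions were not computed for these counts. For H3K27ac alone, neither list had a region at 47.5% of lost regions and at 73.3% of all NC H3T11ph regions. By that measure lost wide regions were bare less often than H3T11ph regions of all widths.

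**Figure D4:**
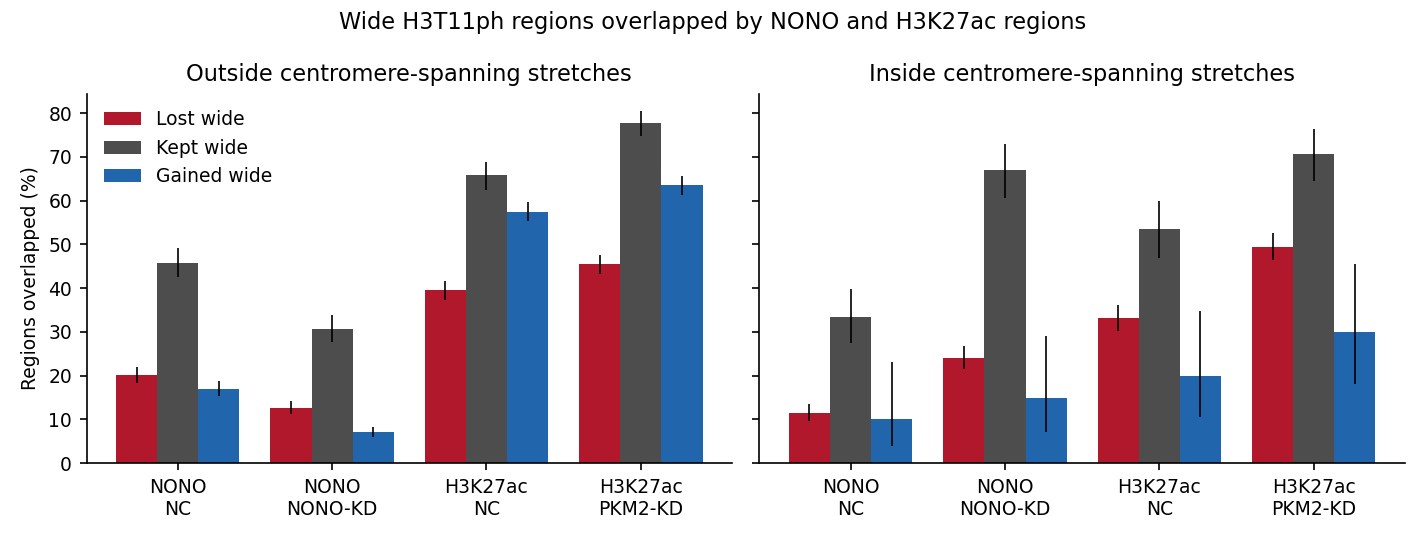
Bars give the percentage of lost (red), kept (grey) and gained (blue) wide H3T11ph regions that overlapped a region of each NONO and H3K27ac list, outside (left) and inside (right) the centromere-spanning stretches, with 95% Wilson intervals. In every list and both panels the lost bar is lower than the kept bar, and outside the stretches the H3K27ac bars of lost regions, 39.5% in NC and 45.4% in PKM2-KD, are also lower than those of gained regions.

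The study asked whether H3K27ac goes together with H3T11ph when PKM2 is depleted. At the lost wide regions, 933 had H3K27ac in both genotypes (31.6%, beside 13.2% of all NC H3T11ph regions), 169 in NC only (5.73%, beside 6.78%), 448 in PKM2-KD only (15.2%, beside 6.79%) and 1401 in neither (47.5%, beside 73.3%). H3K27ac in NC only was somewhat more frequent at lost than at kept regions, of which 34 of 1052 had it (3.23%), a difference of 2.495 points (1.02 to 3.77). From gained regions the difference was 0.19 points (-1.18 to 1.49). For tall regions outside the stretches, 106 of 1308 lost (8.10%), 21 of 716 kept (2.93%) and 85 of 1582 gained regions (5.37%) had H3K27ac in NC only. Lost regions there differed by 5.17 points from kept (3.14 to 7.06) and by 2.73 points from gained ones (0.90 to 4.62). For low regions, with a pileup under 20, the differences were 0.80 points from kept (-2.43 to 2.71) and -2.08 from gained ones (-5.34 to 0.29). Inside the stretches they were -1.58 points (-4.89 to 0.34) and -3.38 points (-14.9 to 0.37). The excess in NC only was thus seen for tall regions outside the stretches and not for these other subsets. H3K27ac in PKM2-KD only differed by -1.17 points from kept regions, with an interval from -3.84 to 1.33 points, and by 3.47 points from gained ones (1.51 to 5.38). The H3K27ac lists of NC and PKM2-KD differ in size and form, so only sets of regions were compared with each other here. Width was not held equal in these comparisons or in the overlaps above. The median width was 285 bp in lost, 344 bp in kept and 230 bp in gained regions. The part of width in the differences was not tested beyond the alternative minimum width given below.

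At genes, 338 lost wide regions (11.5%, 10.4 to 12.7) lay within 1 kb of an end of a protein-coding gene, beside 7.89% of all NC regions. The share was 22.5% in kept regions (-11.1 points, -13.9 to -8.37) and 18.7% in gained ones (-7.21 points, -9.32 to -5.14). The difference from kept regions went with height. It was -0.01 points (-5.70 to 2.44) at a pileup of 5 to 10 fragments, -0.27 (-5.76 to 3.10) at 10 to 20, -7.76 (-14.8 to -1.58) at 20 to 40 and -5.47 (-10.0 to -0.98) at 40 or more. For tall regions outside the stretches it was 281 of 1308 lost and 329 of 1582 gained regions, a difference of 0.69 points (-2.29 to 3.69), and 226 of 716 kept regions (-10.1 points, -14.2 to -6.06). A protein-coding gene contained 979 lost regions (33.2%, beside 44.1% of all NC regions), and outside the stretches 49.9%, against 47.1% of kept regions. Within 3 Mb of the first or last region of the 6 lists on a chromosome lay 437 lost regions (14.8%, beside 8.3% of all NC regions). Of the 338 lost regions near a gene end, 181 had H3K27ac in both genotypes, 52 in PKM2-KD only, 13 in NC only and 92 in neither.

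These regions belonged to 410 of 18969 protein-coding genes, or 2.16%. At 330 of them (1.74% of all genes) no H3T11ph region of any width was left within 1 kb of an end in PKM2-KD, and at 80 one was present elsewhere at the gene. Gained wide regions lay at 418 genes (2.2%), and 15 genes had both, which is 3.66% of the genes with a lost and 3.59% of the genes with a gained region.

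Near start sites the lost regions lay just upstream. Start sites and promoters of chromosome 8 were not analysed here, so its 96 lost, 41 kept and 84 gained regions are not in these counts. Of the other lost wide regions, 267 had their summit within 1 kb of a RefSeq start site, with a median position of -98 bp (negative is upstream), and 67.8% of these summits were upstream (62.0 to 73.1). Kept regions had 192 such summits at a median of -120.5 bp, and gained regions 298 at -114.5 bp. The 3 distributions had their peak in the same place, ahead of the start site.

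**Figure D5:**
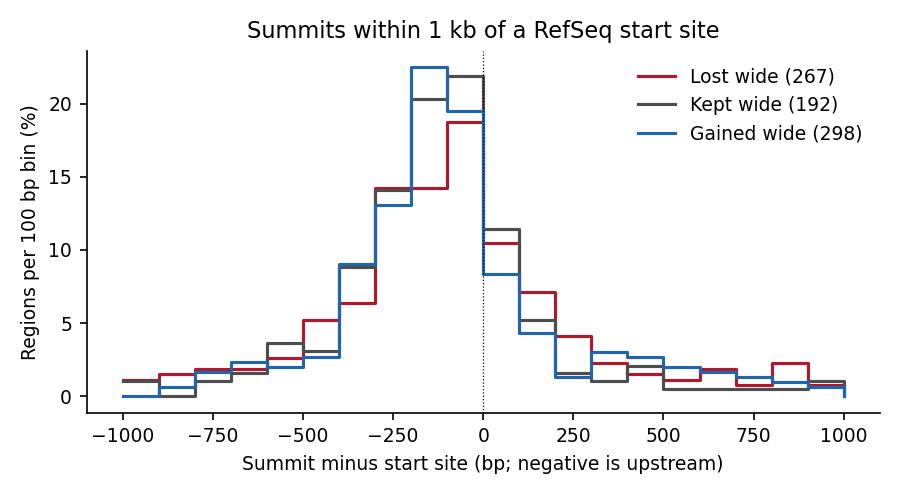
Distance from the summit of a wide H3T11ph region to the nearest RefSeq start site in bp (horizontal, negative is upstream), as the percentage of the 267 lost, 192 kept and 298 gained regions with a summit within 1 kb (vertical). The 3 curves peak just upstream of the start site, with medians of -98, -120.5 and -114.5 bp.

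The lost regions with the highest fold lay both at genes and between them. The region with the highest fold, 101 with a pileup of 137, lay within LMF1 (chr16:914497-914769), a gene for a factor that matures lipases in the endoplasmic reticulum, 37201 bp from any PKM2-KD region. An H3K27ac NC region of fold 3.63 overlapped it, and none of the other 3 lists had a region there. KRT80, a keratin gene, had the next one near an end (chr12:52192171-52192426, fold 97.1, pileup 138). Its nearest PKM2-KD region was only 124 bp away, and H3K27ac was present there in NC (fold 21.3) and PKM2-KD (43.2).

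Within EPHB1, an ephrin receptor gene, a region of fold 92.6 (chr3:135159701-135160065) had neither NONO nor H3K27ac. Within DYSF, a gene for a membrane repair protein of muscle, a region of 754 bp and fold 83.8 (chr2:71617830-71618583) had H3K27ac in NC only, with a fold of 13.8. Within DST, a gene for a cytoskeletal linker, a region of fold 80.9 (chr6:56595547-56595921) had H3K27ac in NC (6.14) and PKM2-KD (8.13), and lay 1410 bp from a PKM2-KD H3T11ph region. The other 4 of the 10 highest by fold, with folds from 80.9 to 91.1, were outside protein-coding genes on chromosomes 1, 3, 5 and 6, and the one on chromosome 1 was 70 bp from a PKM2-KD region. Of these 10, the regions at KRT80 and on chromosome 1 thus had H3T11ph in PKM2-KD close by.

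HSPA5, which encodes the main chaperone of the endoplasmic reticulum, and its neighbour RABEPK shared a lost region of fold 83.2 (chr9:125233619-125233903). It lay 9414 bp from the nearest PKM2-KD region, with H3K27ac of fold 6.87 in NC and 24.5 in PKM2-KD. The ZNF708 region shown above had a fold of 79.0 and a pileup of 112, lay 93932 bp from any PKM2-KD region, and had H3K27ac in NC (16.7) and PKM2-KD (20.1). SAP18, a gene of a histone deacetylase complex, had a region of fold 69.2 (chr13:21140380-21140607) with NONO in NC (37.4) and none in NONO-KD. H3K27ac was present there in NC (18.8) and PKM2-KD (21.1). H3T11ph was thus without a region in PKM2-KD at these 3 places where both H3K27ac lists had one.

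SF3A3, a gene of the U2 splicing complex, had a lost region of fold 65.8 (chr1:37989167-37989408), and H3K27ac overlapped it in PKM2-KD only, at 6.39. AGBL5 and OST4, genes for a tubulin-modifying enzyme and a subunit of the oligosaccharyltransferase, shared one of fold 74.1 (chr2:27071370-27071611) with H3K27ac in PKM2-KD only, at 14.3. KIAA1586 (fold 67.0), AASDH (65.2) and TMEM170A (60.5) had H3K27ac in both genotypes. DAAM2, a formin gene of Wnt signalling, and MOCS1, a gene of molybdenum cofactor synthesis, shared a region of fold 63.4 (chr6:39903571-39903873) with no region of the other lists. H3K27ac PKM2-KD regions overlapped 9 of these 10, and 233 of all 338 lost regions near a gene end (68.9%), 78.9% of kept and 71.2% of gained ones there.

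The widest lost regions were not those of highest fold. The widest, 2386 bp on chromosome 20 (chr20:28494741-28497126), lay in the centromere-spanning stretch with a fold of 16.8 and a pileup of 36. NONO regions overlapped it in NC (4.05) and NONO-KD (16.7), and H3K27ac did not. Of the 6 widest, those on chromosomes 17 (1896 bp) and 2 (1829 bp) also lay in such stretches. Others lay within DLGAP2 (2088 bp, fold 42.3), a synaptic scaffold gene, and DOC2B (1922 bp, fold 11.7), a gene of vesicle release, both near a chromosome end. NONO-KD regions overlapped 5 of the 6, beside 16.5% of all lost wide regions and 4.42% of all NC H3T11ph regions. The share was 27.4% in lost regions at least 3 times the narrowest width. A wider region has more bases at which an overlap can fall, so the count describes these 6 only.

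Among lost regions near a gene end with an H3K27ac region in NC and none in PKM2-KD, the one of highest H3T11ph fold was at DSG2, whose promoter is shown above. It (chr18:31497884-31498183) had a fold of 55.4 and a pileup of 75, and the H3K27ac NC region there was a low one, at 3.96. CHRNE, an acetylcholine receptor subunit gene, followed with a fold of 44.0 (chr17:4908721-4909069), H3K27ac of 5.97 in NC, and NONO of 116 in NC and 4.59 in NONO-KD. GRN, which encodes progranulin, had a fold of 33.6 (chr17:44345077-44345317) with H3K27ac of 4.83 in NC. NDRG2 (fold 16.8), ZBTB37 (15.2), PCBP4 (14.7), LOC101929601 (10.6) and HMGA1 (8.16) had H3K27ac NC folds between 2.36 at LOC101929601 and 7.03 at ZBTB37. At these 8 regions the H3K27ac NC fold was thus never above 7.03, and absence from the PKM2-KD list cannot be told apart from the form of the lists.

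NONO in NC and not in NONO-KD was found at 62 of the 338 lost regions near gene ends. Whether or not NONO-KD had one, a NONO NC region overlapped 76 of these 338 (22.5%). Near gene ends it overlapped 108 of 237 kept (45.6%) and 71 of 357 gained regions (19.9%), so NONO was more frequent at kept regions. TCF3, which encodes a helix-loop-helix transcription factor, had the highest NONO NC fold of those named, 194, at a region of H3T11ph fold 29.9 (chr19:1652669-1653096). TUBB, a beta-tubulin gene, had NONO at 154 and H3T11ph at 38.5 (chr6:30726150-30726425), with a PKM2-KD H3T11ph region 2344 bp away. COQ8B, a gene of coenzyme Q synthesis, and ITPKC, an inositol kinase gene, shared a region with NONO at 41.0 and H3T11ph at 42.4 (chr19:40715855-40716119). NONO NC folds were 39.2 at SNAPC2, of the complex that activates small nuclear RNA genes, 32.3 at HSPA9, a mitochondrial chaperone gene, 8.45 at RMND5A and 2.12 at NUP155, a nuclear pore gene. H3K27ac in PKM2-KD was present at all 8 of these regions, with folds from 6.18 at SNAPC2 to 63.4 at HSPA9. Absence from NONO-KD cannot be told apart from the form of the NONO lists.

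Lost wide regions were about as frequent at the genes of the groups listed for this study and cell line as at all genes. Of 823 genes in 14 lists, 16 had one within 1 kb of an end (1.94%, beside 2.16% of all genes). Lists without one included the histone acetyltransferases (10 genes, KAT5 among them), glycolysis (17), MYC and cyclins (8), AP-1 factors (12), the mesenchymal program (14), DBHS proteins and partners (5) and hnRNP and SR splicing factors (21), which are too short to read anything from a count of 0.

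The 16 genes were spread over 5 lists. TEAD3, a transcription factor of the YAP pathway, had 2 lost regions, of folds 23.5 and 20.4 (chr6:35472675-35472941 and chr6:35474154-35474384), the second only 44 bp from a PKM2-KD region. CCN1, a secreted target of YAP, had one of fold 19 (chr1:85580779-85581027), 117 bp from a PKM2-KD region, with H3K27ac of 23 in NC and 82.4 in PKM2-KD. ITGA10, an integrin gene, had one of fold 41.5 (chr1:145891937-145892198), with no PKM2-KD region within 9356 bp. In the YAP and TEAD list, 2 of 14 genes thus had a lost wide region, and both had a PKM2-KD region elsewhere within 1 kb of an end.

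Of 93 cytosolic ribosomal protein genes, 3 had a lost wide region (3.23%), RPL15 (fold 4.37), RPL26 (9.16) and RPS15 (5.65), and 7 had a kept one. Of 78 histone genes, 3 had one (3.85%), H2BC3 (18.7), H3-3B (8.37) and H4C2 (4.44), and 7 had a kept one. Among 506 zinc finger genes 7 had a lost region (1.38%), of folds from 2.09 at ZNF569 to 79.0 at ZNF708, and none of the 7 had an H3T11ph region left within 1 kb of an end in PKM2-KD.

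The promoters under lost regions were rich in G and C, as were those under kept and gained ones. Lost wide regions overlapped the promoter window (250 bases before to 50 after the start) of 220 genes, with a median of 66.2% G and C, against 65% for the 192 genes of kept, 65.7% for the 253 genes of gained regions and 62.7% for all 15100 genes with a promoter sequence. The GC box GGGCGG, on either strand, was in 80.5% of them (74.7 to 85.1), 79.2% of kept, 74.3% of gained and 57.8% of all promoters. The CCAAT box was in 41.8% (35.5 to 48.4), 53.1%, 45.9% and 35.9%, and the TATA box as TATAAA in 7.27%, 7.29%, 2.77% and 10%. The ETS core CCGGAA was in 34.1%, 33.3%, 26.5% and 22.8%. The AP-1 site TGANTCA was in 4.09% of promoters under lost regions and 5.91% of all. The E-box CACGTG was in 10.9% and 8.45%, and the YY1 site AAGATGGC in 6.82% and 3.83%. Each motif was searched on both strands. None of these motifs contains another, and a match describes letters only. In the printed sequences, GGGCGG or its complement stands in all 5, and CCAAT or its complement in ZNF708, TMEM170A and RMND5A.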

How the data were processed

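MDA-MB-231 cells were profiled by CUT&Tag with antibodies to 3 targets, and each of the 6 groups was represented by 1 library. The authors deposited 1 narrowPeak list per library. The deposited columns used were the score, the fold (a ratio of the summit to its background, with 1 added to both), and the p-value and q-value as −log10. The score is a whole number derived from q and was not used further. The smallest −log10 q places the threshold of the lists near a q of 0.05. The submitters' processing notes name hg38, FastQC 0.11.9, cutadapt 1.18, SAMtools 1.3.1, MACS2 2.1.1.20160309 and DESeq2, without roles. The aligner, the handling of duplicates and of reads that match several places, and the control are not given in the sources used here. Pileups were recovered as whole numbers whose −log10 p differed from the deposited value by at most 0.002, and each gave a background value with it. Read totals are not part of the lists. Depth was therefore taken as the commonest background (0.37 in H3T11ph NC and 0.31 in PKM2-KD) over the narrowest width of the list. It holds only if that width is the fragment length.

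On chromosomes 1 to 22, regions that shared at least 1 bp were taken as overlapping. Shares carry 95% Wilson intervals and differences 95% Newcombe intervals, and both cover counting error only. Genes, start sites and promoter sequences came from RefSeq tables of GRCh38.p14, with 18969 protein-coding genes on these chromosomes. Promoter sequences were matched for 15100 of them (79.6%), none on chromosome 8, so gene ends were the main measure and start sites an alternative. A gene end is either end of the gene. The centromere-spanning stretches were defined from the gene table alone. That measure, the chromosome ends, the motifs and the division at a pileup of 20 were added after the data were seen.

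The regions named were the 10 of highest fold, the 6 widest, the 10 of highest fold near a gene end, the 8 of highest fold near a gene end with H3K27ac in NC only and the 8 with NONO in NC and not in NONO-KD. To these were added the regions of listed genes and those next to the limits of the rule. MIDEAS was added for its promoter. The regions and gene lists were chosen with earlier results of these data known. Overlap and interval code was tested on simulated regions. Python 3.11.15, numpy 2.4.6, pandas 2.3.3, scipy 1.17.1 and matplotlib 3.10.9 were used. Alternatives covered width, q, overlap, distance, pileup bands and the X chromosome.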

Additional observations from a re-analysis of the deposited data

How the results depend on the processing

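Differences between libraries and between genotypes cannot be told apart here, and leaving out a library would leave no comparison. No paired analysis was possible because there was a single library in every group. Absence from a list is not absence of the mark, since a low region can miss the threshold. The share of wide regions lost, 73.7%, was 62% at a width of at least 3 times the narrowest, 94.2% with no width minimum, 76.4% when an overlap of at least 50% of the shorter region was asked for, and 68.3% when a PKM2-KD region within 500 bp also counted. A −log10 q of at least 5 and the addition of the X chromosome left it within its interval.

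The differences of lost from kept regions in overlap with the other lists stayed negative under every alternative run. In pileup bands of 5 to 10, 10 to 20, 20 to 40 and 40 or more fragments, the difference for NONO NC was -8.75, -10.7, -21.2 and -30.3 points. For H3K27ac PKM2-KD it was -37.2, -18, -37.1 and -25.2. For NONO-KD it was -26.2 and -35.1 in the lowest pair of these bands, and -18.1 outside the centromere-spanning stretches. For H3K27ac NC it was -21.5 and -15.7 in that pair and -19.3 in the highest band. At 3 times the narrowest width, H3K27ac NC gave -19.4 and H3K27ac PKM2-KD -20.6. The difference near gene ends, -11.1 points, was -0.0106, -0.272, -7.76 and -5.47 in the 4 bands, which were added after the data were seen, and stayed within its interval under the other alternatives run, and the number of genes, 410, lay between 330 and 581.

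The excess of lost over kept regions in the centromere-spanning stretches, 12.7 points, was 3.85 at a −log10 q of at least 5, 17.2 at 3 times the narrowest width and 16.6 at 5 to 10 fragments. It reversed to -3.19, -8.68 and -6.13 in the 3 higher bands. Of all alternatives, 27 values stayed within the interval or count range of the result, 27 moved and 3 reversed.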

Other observations

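The ends of the chromosomes also held lost wide regions. An end was taken as the first or last region of the 6 lists on a chromosome. Some ends therefore reached the centromere-spanning stretches, and 30 of the lost regions counted near an end lay inside them. Within 3 Mb of such an end lay 437 of the 2951 lost regions (14.8%, 13.6 to 16.1), beside 8.3% of all NC regions. The share was 16.1% in kept regions, a difference of -1.26 points (-3.90 to 1.22), and 10.9% in gained ones, a difference of 3.94 points (2.01 to 5.81). For tall regions outside the centromere-spanning stretches the difference from gained regions was 8.07 points (5.64 to 10.6), with 218 of 1308 lost and 136 of 1582 gained regions. For low regions outside these stretches it was 4.8 points (-1.40 to 10.6), with 189 of 655 lost and 70 of 291 gained regions. At 5 to 10 fragments over all positions, where most lost regions lay in the stretches, it was -15.3 points (-22.9 to -8.67).

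Lost shares also differed among chromosomes outside the stretches. Chromosome 13 lost 89.1% of its wide regions there (77.0 to 95.3) and chromosome 19 lost 61.5% (55.0 to 67.6). Chromosomes 19 and 21 had the largest part of all their NC regions, wide or not, in the lost wide class, at 13.3% and 12.5%.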
